A study of Mus musculus with 6 samples.

Results

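Msln, Upk3b, Upk1b, Wt1, Lrrn4, Krt19, Krt8 and Krt18 are genes of the mesothelium, and their RNA was followed in mouse gonadal white adipose tissue (gWAT), a visceral fat depot. They were chosen by name, as rows of the deposited count table whose NCBI gene identifier belongs to these symbols. The choice was made with earlier results of these data known. All 8 were found among the 19790 identifiers of the table. Wild-type C57BL/6 mice were fed a normal chow diet (NCD, 3 mice) or a high-fat diet (HFD, 3 mice) for 8 weeks. The sample labels give an age of 6 weeks at the start of the diets, the study's methods give another age, and the methods state that the mice were male. The sample titles call these 6 mice WT and name no transgene, deletion or drug. The methods use WT also for Tmem86a floxed mice without Cre. Each library came from the bulk fat pad of a mouse, without sorting of cells.

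The mesothelium is the single layer of flat epithelial cells that covers the abdominal organs and the surface of visceral fat, and subcutaneous fat has none. Its cells carry microvilli, release a lubricating fluid and are held together by junctions. Unlike most epithelia they arise from mesoderm and keep the transcription factor WT1. They build their intermediate filaments from the simple keratins, in which a type I chain (keratin 18 or 19) pairs with a type II chain (keratin 7 or 8). These keratins are shared with glandular epithelia, whereas mesothelin and uroplakin 3B are more restricted to the mesothelial surface. In bulk tissue, fewer cells of a type and less RNA per cell cannot be told apart.

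Of the 8 genes, Krt8 and Krt18 are neighbours in the genome. In the RefSeq annotation of the mouse build GRCm38.p6, Krt8 occupies chromosome 15 from 101996711 to 102004342 on the minus strand and Krt18 occupies chromosome 15 from 102028216 to 102032026 on the plus strand. The pair is transcribed away from each other across 23873 bases. Msln lies on chromosome 17 from 25748613 to 25754378 on the minus strand, Upk3b on chromosome 5 from 136038496 to 136044993 on the plus strand and Upk1b on chromosome 16 from 38773182 to 38800203 on the minus strand. Wt1 lies on chromosome 2 from 105126529 to 105173614 on the plus strand and Lrrn4 on the same chromosome from 132866686 to 132894010 on the minus strand. Krt19 lies on chromosome 11 from 100140810 to 100145926 on the minus strand. The spans of Lrrn4 and Crls1, the cardiolipin synthase gene, overlap by 101 bases.

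RefSeq promoter windows (build GRCm38.p6), from 250 bases before to 50 bases after the listed start of a gene, were found for 4 of the 8 genes. All 4 windows found are shown. Krt8 and Krt18 are neighbours that encode the partners of a filament, and the ratio between them did not overlap between the diets. Upk3b and Lrrn4 are surface genes that varied alike between the mice. The listed start of Lrrn4 lies inside the span given above. Each window is printed 5′ to 3′ on the strand of its gene, with matches to the searched motifs in capitals.
Krt8, chr15:102004293-102004592, minus strand: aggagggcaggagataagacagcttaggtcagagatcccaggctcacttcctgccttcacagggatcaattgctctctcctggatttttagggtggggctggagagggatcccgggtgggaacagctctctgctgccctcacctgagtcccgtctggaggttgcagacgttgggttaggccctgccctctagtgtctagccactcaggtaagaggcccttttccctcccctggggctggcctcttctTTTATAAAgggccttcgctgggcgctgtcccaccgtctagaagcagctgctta
Krt18, chr15:102027966-102028265, plus strand: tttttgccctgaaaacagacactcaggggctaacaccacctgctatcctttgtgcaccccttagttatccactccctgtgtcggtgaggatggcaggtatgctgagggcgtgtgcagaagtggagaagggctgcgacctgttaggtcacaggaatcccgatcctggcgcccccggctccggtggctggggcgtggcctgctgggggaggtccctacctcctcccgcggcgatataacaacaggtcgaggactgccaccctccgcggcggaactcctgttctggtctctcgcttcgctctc
Upk3b, chr5:136038246-136038545, plus strand: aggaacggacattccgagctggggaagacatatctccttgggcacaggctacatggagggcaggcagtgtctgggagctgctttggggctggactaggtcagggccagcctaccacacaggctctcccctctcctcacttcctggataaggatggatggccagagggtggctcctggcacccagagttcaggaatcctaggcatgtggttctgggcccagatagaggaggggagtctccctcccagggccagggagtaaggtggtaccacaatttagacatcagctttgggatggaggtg
Lrrn4, chr2:132880813-132881112, minus strand: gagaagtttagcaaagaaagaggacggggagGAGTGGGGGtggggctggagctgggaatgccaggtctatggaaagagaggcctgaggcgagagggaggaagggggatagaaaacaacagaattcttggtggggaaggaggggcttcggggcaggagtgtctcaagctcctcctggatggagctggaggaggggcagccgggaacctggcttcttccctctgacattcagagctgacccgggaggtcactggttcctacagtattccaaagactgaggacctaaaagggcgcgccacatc
Both strands of each window were searched for the TATA box (TATAAA), the GC box (GGGCGG), the AP-1 site (TGANTCA) and a WT1-type site (GNGTGGGNG). Among 32851 windows of the same length these were held by 13.6%, 35.7%, 7.81% and 14.3%, respectively. The Krt8 window held TATAAA, beginning 1 base before the listed start, and an overlapping match on the other strand that begins 3 bases before it. The Lrrn4 window held 1 WT1-type match, beginning 219 bases before the listed start. The windows of Krt18 and Upk3b held none of the 4 letter patterns, which says only that these letters are not in them.

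Total counts were between 49575113 and 66360046 per library, and every one of the 8 genes had at least 310 counts in every library. A pair of libraries stood apart. In NCD replicate 1, 58.6% of all counts fell on 11 secretory genes of the seminal vesicle, an accessory gland of the male tract. Their share was 11.2% in NCD replicate 2 and only 2.30% in NCD replicate 3. The same genes had 2 to 8 counts in each HFD library, where 9 or 10 of the 11 were at 0. The summed level of 12 markers of glandular epithelium followed this order, from 30.3 to 1508 on NCD against 11.2 to 14.6 on HFD, in CPM (counts relative to the library total) scaled between libraries by the trimmed mean of M values (TMM-scaled CPM). Of these 12 markers none was at 0 in an NCD library and 3 or 4 were at 0 in each HFD library. The summed level of 8 smooth muscle markers was 295 to 6920 on NCD and 267 to 373 on HFD. The 4 urothelial markers in the table summed to 0.837 to 35.7 on NCD and 0.208 to 0.635 on HFD. The adipocyte markers, all 8 of which were counted in every library, summed to 3429 to 18845 on NCD and 10867 to 14253 on HFD, the lowest value being that of NCD replicate 1. The sums of progenitor markers (943 to 1429 on NCD and 1192 to 1701 on HFD) and endothelial markers (210 to 729 and 713 to 852) overlapped between the diets, whereas those of macrophage markers (170 to 393 and 1082 to 1944) did not. HFD replicate 2 was the library in which the mesothelial genes themselves stood apart, as described below. The diet comparison of each of the 8 genes is therefore given with and without NCD replicate 1.

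Msln, which encodes the surface protein mesothelin, was the member that passed the test between the diets. Its level in the order of the replicates was 17.8, 18.8 and 14.8 TMM-scaled CPM on NCD, and 67.2, 124 and 47.5 on HFD. The diets did not overlap, and the chow-fed mice lay close together. The NCD mean of 17.1 ± 2.04 compared with an HFD mean of 79.6 ± 39.8 (SD, 3 mice each). The difference was 2.22 on the log2 scale, with a standard error of 0.375 (edgeR quasi-likelihood test, adjusted p = 0.0289 by Benjamini-Hochberg over 15241 genes). It was 2.26 without NCD replicate 1 (standard error 0.441, edgeR adjusted p = 0.0227). Starting again from all 6 mice and leaving out 1 mouse other than NCD replicate 1 at a time, the log2 fold change was 1.76 to 2.49 and the edgeR adjusted p rose to between 0.0599 and 0.101. In those fits 2 to 7 of all genes were called.

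**Figure D1:**
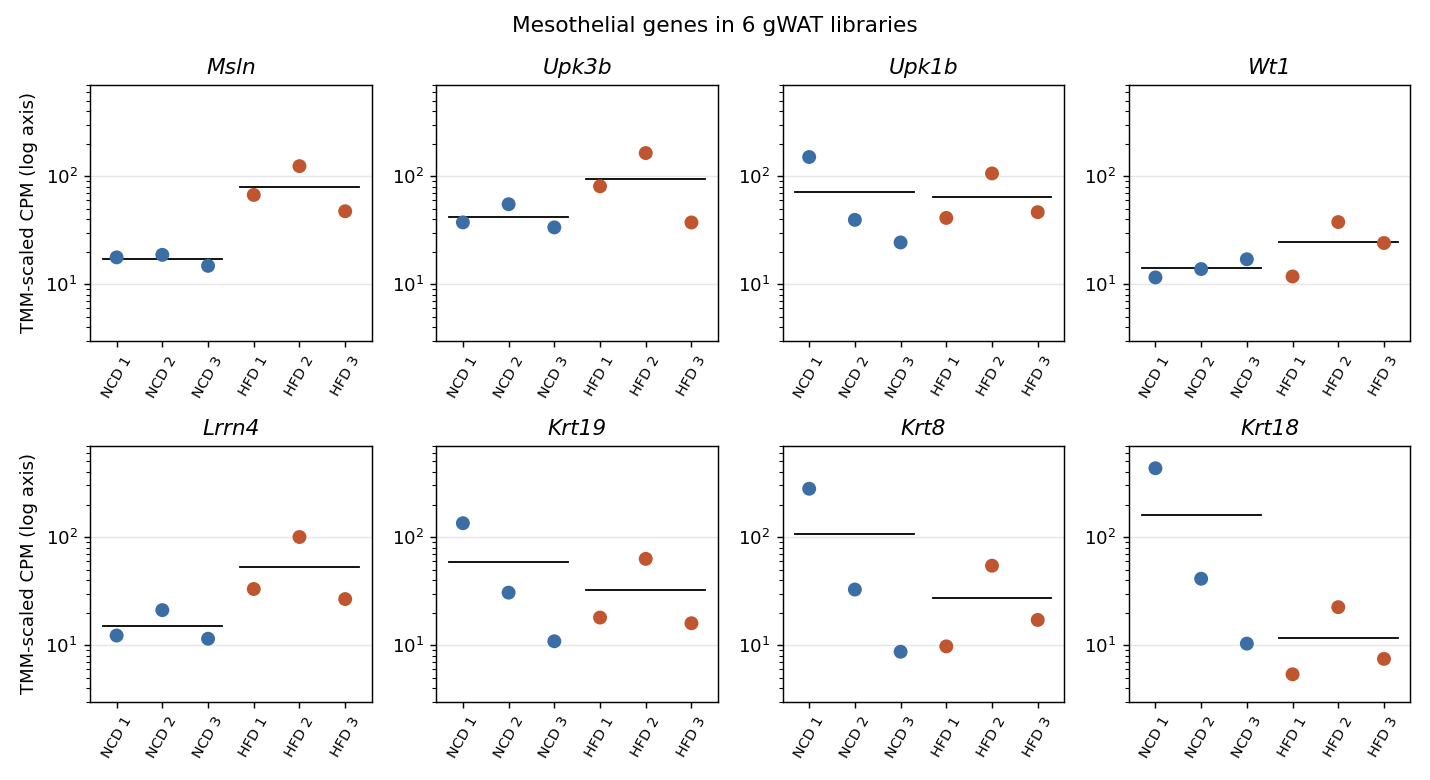
TMM-scaled CPM (log axis) of the 8 mesothelial genes in each of the 6 libraries, with NCD in blue, HFD in orange and a line at the mean of each diet. Msln and Lrrn4 separate the diets, Upk1b and the keratins are highest in NCD replicate 1, and HFD replicate 2 is the highest HFD library for each gene.

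Among the 8 genes, 1 was higher and none was lower on HFD at an adjusted p under 0.05 by edgeR, and 2 were higher and 1 lower at an unadjusted p under 0.05, against 16.0% of all genes higher and 13.7% lower. Over all 15241 genes tested 7.47% were called in either direction and 5.58% were called higher, so a single call among 8 genes does not set them apart from the background. Without NCD replicate 1 the same gene, Msln, was the single call, where 20.9% of all genes were called in either direction and 10.7% were called higher. All HFD-fed mice lay above all NCD-fed mice in 2 of the 8 genes, against 20.5% of all genes. Without NCD replicate 1 this held for 3 of the 8, against 28.5% of all genes. The median log2 fold change of the 8 genes was 0.32 beside -0.08 over all genes, and 0.86 beside 0.02 without NCD replicate 1. The fitted fold change was above 0 for 4 of the 8 genes with all mice and for 7 of the 8 without NCD replicate 1.

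Lrrn4, a leucine-rich repeat membrane protein gene used as a marker of mesothelial cells, had the pattern closest to Msln among the members. Its level was 12.3, 21.1 and 11.5 TMM-scaled CPM on NCD and 33.1, 100 and 26.7 on HFD, in the order of the replicates. The diets did not overlap, but HFD replicate 2 lay well above the other HFD-fed mice and the log2 fold change of 1.83 (standard error 0.573) missed the threshold by edgeR (adjusted p = 0.0991). Without NCD replicate 1 it was 1.73 (standard error 0.665, edgeR adjusted p = 0.120). The log2 fold change was 1.02 without HFD replicate 2. DESeq2 placed Lrrn4 past the threshold with a log2 fold change of 1.83 (adjusted p = 0.0110), in a fit that called 25.6% of all genes. Crls1, whose span overlaps that of Lrrn4, differed by -0.25 on the log2 scale (standard error 0.178, edgeR adjusted p = 0.383), which is the opposite sign.

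Upk3b and Upk1b encode uroplakins, membrane proteins known from the bladder lining that the mesothelium also makes. Upk3b was measured at 37.5, 55.2 and 33.7 TMM-scaled CPM on NCD and at 80.8, 164 and 37.4 on HFD. HFD replicate 3 lay among the NCD-fed mice, and the log2 fold change of 1.16 (standard error 0.534) did not pass (edgeR adjusted p = 0.206). It was 1.10 without NCD replicate 1 (standard error 0.619, edgeR adjusted p = 0.253), and 0.51 without HFD replicate 2. Upk1b was measured at 151, 39.5 and 24.4 TMM-scaled CPM on NCD and at 41.2, 106 and 46.6 on HFD. NCD replicate 1 held the highest value of all 6 libraries. The log2 fold change of Upk1b was -0.14 (standard error 0.746, edgeR adjusted p = 0.912) with that library and 1.03 (standard error 0.479, edgeR adjusted p = 0.176) without it, where all 3 HFD-fed mice lay above both NCD-fed mice. The other uroplakins were scarce. Upk1a stayed between 0.175 and 0.368 TMM-scaled CPM. Upk2, a partner of the bladder plaque, had 436, 65 and 12 counts in NCD replicates 1, 2 and 3 and no count in the HFD libraries, where a count of 0 allows up to 3 counts per library. Both were tested by edgeR, and neither passed with all mice, with Upk2 lower at an unadjusted p under 0.05, against 13.7% of all genes. Without NCD replicate 1, Upk2 was called lower (edgeR adjusted p = 0.0398), in a fit that called 20.9% of all genes. On TMM-scaled CPM the ratio of Upk2 was 12.2 between NCD replicates 1 and 2 and 4.87 between 2 and 3. Glandular epithelial markers had ratios of 9.25 to 12.3 and 2.91 to 8.89. The part of seminal vesicle RNA in the call was not tested.

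Wt1 encodes the zinc finger transcription factor that marks the mesothelial lineage and is also active in part of the progenitors of visceral fat. Its level was 11.6, 13.9 and 17.1 TMM-scaled CPM on NCD and 11.8, 37.7 and 24.1 on HFD. HFD replicate 1 lay within the NCD range and the other HFD libraries lay above it. The log2 fold change was 0.79 (standard error 0.423, edgeR adjusted p = 0.262) with all mice and 0.68 (standard error 0.472, edgeR adjusted p = 0.342) without NCD replicate 1, and it was 0.36 without HFD replicate 2.

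The keratin genes had their highest levels in NCD replicate 1. Krt18, the type I partner of keratin 8, was measured at 433, 41.1 and 10.3 TMM-scaled CPM on NCD and at 5.37, 22.5 and 7.46 on HFD. The NCD-fed mice were spread widely, and HFD replicate 2 lay above NCD replicate 3. The log2 fold change was -3.78 (standard error 1.45, edgeR adjusted p = 0.148) with all mice and -1.11 (standard error 0.786, edgeR adjusted p = 0.354) without NCD replicate 1. DESeq2 placed the first of these past its threshold (adjusted p = 0.00779). Krt8, the type II partner, was measured at 280, 32.7 and 8.69 TMM-scaled CPM on NCD and at 9.74, 54.3 and 17.1 on HFD. Its log2 fold change was -1.98 (standard error 1.31, edgeR adjusted p = 0.350) and turned to 0.41 (standard error 0.863, edgeR adjusted p = 0.763) without NCD replicate 1. A processed pseudogene of Krt8 is annotated, and the treatment of reads that match both copies is not stated in the sources. Krt19, a type I keratin with a short tail, was measured at 134, 30.6 and 10.9 TMM-scaled CPM on NCD and at 18, 62.8 and 15.9 on HFD. Its log2 fold change was -0.86 (standard error 0.991, edgeR adjusted p = 0.588) and turned to 0.65 (standard error 0.748, edgeR adjusted p = 0.565) without that library. In each of the 3 keratin genes the diets overlapped in both comparisons.

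**Figure D2:**
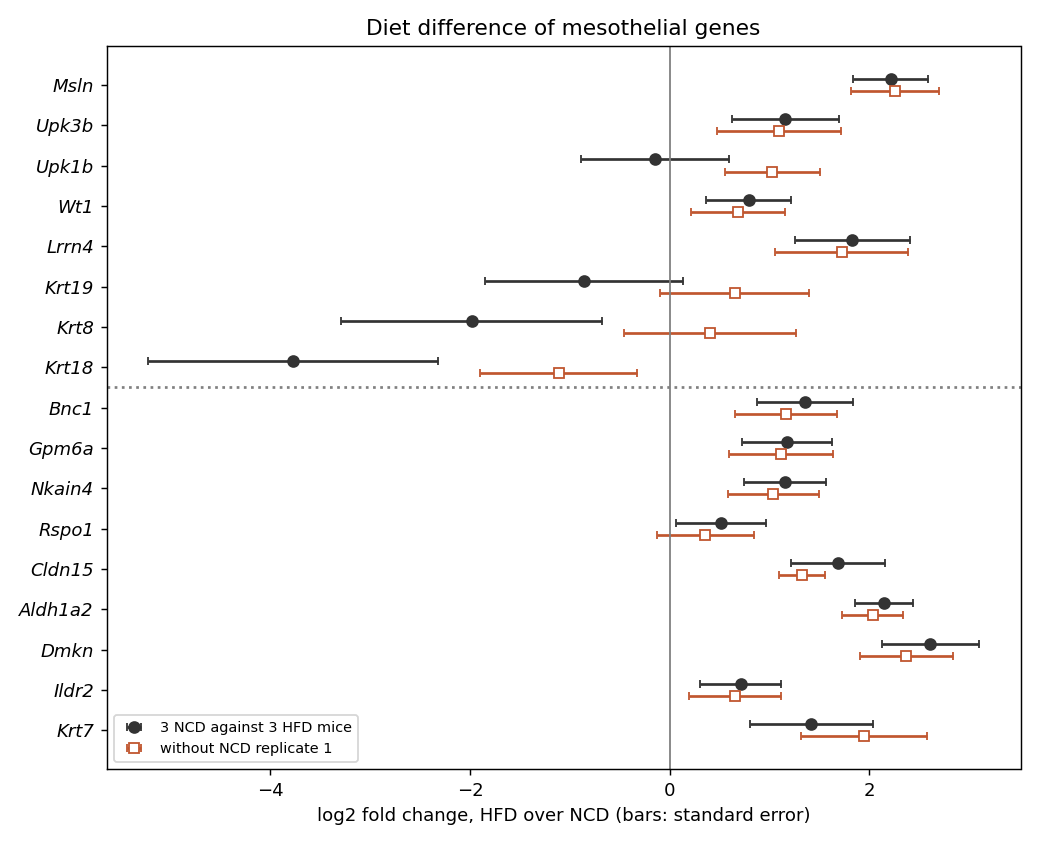
Log2 fold change of HFD over NCD, with its standard error, for the 8 mesothelial genes (above the dotted line) and 9 other mesothelial genes (below it), with all 6 mice (filled circles) and without NCD replicate 1 (open squares). Upk1b, Krt19 and Krt8 cross 0 when NCD replicate 1 is left out, whereas Msln stays at 2.22 and 2.26.

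The members thus fell into sets by how they stood in NCD replicate 1. Upk1b, Krt19, Krt8 and Krt18 were more than 2-fold above the mean of the other NCD libraries there, that is 4 of 8 genes against 15.9% of all genes tested. On TMM-scaled CPM, NCD replicate 1 stood to NCD replicate 2 in a ratio of 10.5 for Krt18, 8.56 for Krt8, 4.39 for Krt19 and 3.81 for Upk1b. For Msln, Wt1, Upk3b and Lrrn4 it was 0.948, 0.837, 0.679 and 0.582. Adipocyte markers had ratios of 0.157 to 0.312 and endothelial markers of 0.263 to 0.418, below every member. Those of macrophage markers were 0.350 to 1.26 and those of progenitor markers 0.462 to 5.58. A ratio near 1 on this scale therefore does not show a steady level relative to the RNA of the fat cells. The 11 seminal vesicle secretory genes had ratios of 10.3 to 11.7 and the 12 glandular epithelial markers of 9.25 to 12.3, so that Krt18 lay within both ranges, Krt8 lay just below them and the other members lay well below. Between NCD replicates 2 and 3 the order was similar at its upper end, with a ratio of 3.98 for Krt18, 3.76 for Krt8 and 2.82 for Krt19 beside 4.57 to 5.37 for the secretory genes. The glandular epithelial markers had ratios of 2.91 to 8.89, so that Krt18 and Krt8 lay within that range and Krt19 just below it. The ratio was 1.84 for Lrrn4, 1.64 for Upk3b, 1.62 for Upk1b, 1.26 for Msln and 0.812 for Wt1. The part of seminal vesicle RNA in the diet difference of each gene was not tested.

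**Figure D3:**
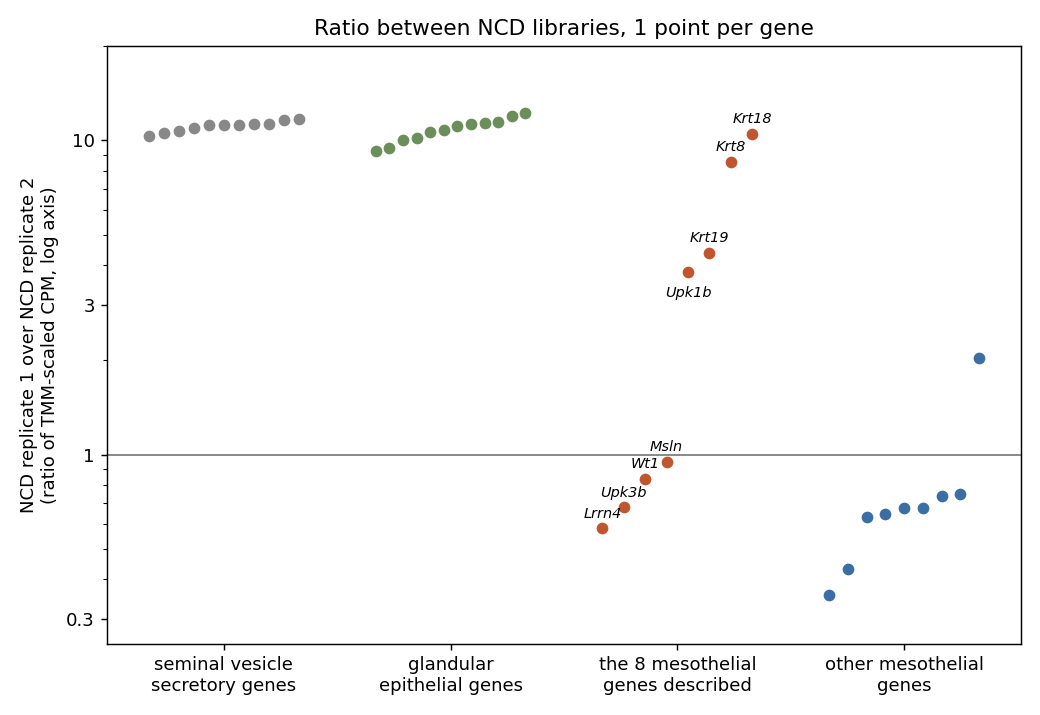
Ratio of TMM-scaled CPM in NCD replicate 1 to that in NCD replicate 2 (log axis), 1 point per gene, for 11 seminal vesicle secretory genes, 12 glandular epithelial markers, the 8 mesothelial genes (named) and 9 other mesothelial genes. Krt18 and Krt8 lie near the secretory genes, and Msln, Wt1, Upk3b and Lrrn4 lie below 1.

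Ratios of members within a library do not depend on the scaling between libraries. They were taken on TMM-scaled CPM per kilobase of exon (FPKM). Krt18 exceeded Krt8 in each NCD library, with ratios of 2.11, 1.71 and 1.62, and was below it in each HFD library, with ratios of 0.752, 0.563 and 0.594. The mean log2 ratio was 0.85 ± 0.200 on NCD and -0.66 ± 0.221 on HFD (SD, 3 mice each), a difference of -1.51. The diets did not overlap, and p was 0.1 in an exact two-sided permutation test, which cannot go lower with 3 mice against 3. The difference stayed between -1.64 and -1.40 when any mouse was left out. It was thus present without NCD replicate 1, though the sum of glandular markers remained higher in NCD replicates 2 and 3 than on HFD. On NCD the ratio of Krt18 to Krt8 fell in the order of the seminal vesicle share of the libraries. The part of that RNA in the ratio was not tested. The ratio of Krt19 to Upk3b was 8.03, 1.24 and 0.723 on NCD and 0.499, 0.858 and 0.955 on HFD. Its log2 difference of -1.38 rested on NCD replicate 1, since it was -0.35 without that library and -2.09 to -1.09 when another mouse was left out. With all mice an exact two-sided permutation test gave p = 0.3 for it. The ratio of Msln to Upk3b, chosen after its values were seen and therefore given with no test, was 0.770, 0.551 and 0.715 on NCD and 1.35, 1.23 and 2.06 on HFD. Its log2 difference was 1.16, and 0.94 to 1.31 when any mouse was left out.

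**Figure D4:**
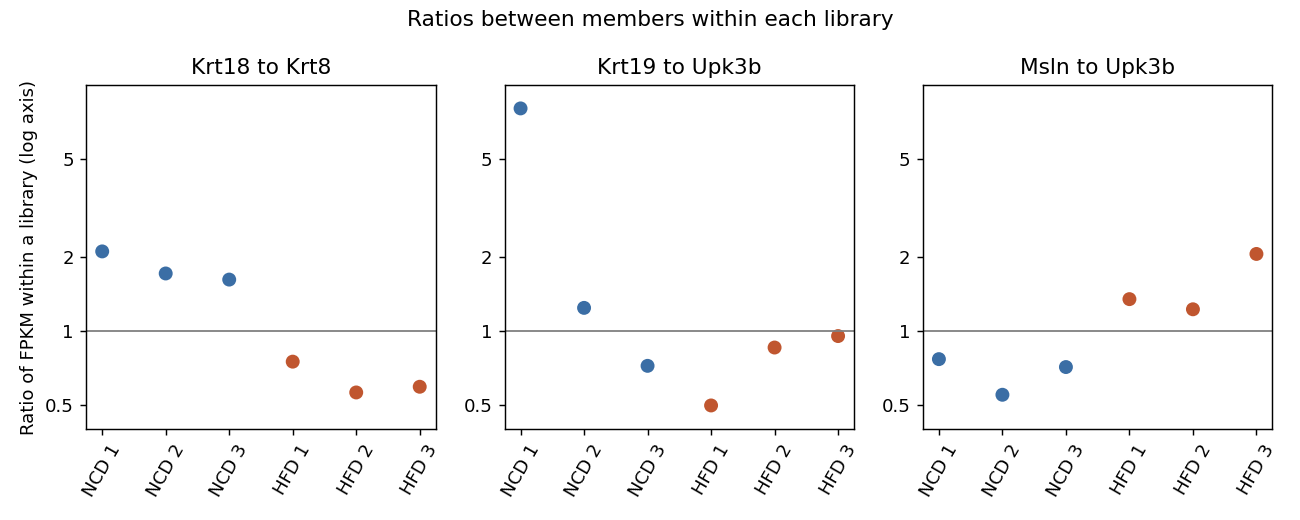
Ratio of FPKM between pairs of mesothelial genes within each library (log axis), with NCD in blue and HFD in orange. Krt18 to Krt8 lies above 1 in the NCD libraries and below 1 in the HFD libraries, Msln to Upk3b the other way round, and Krt19 to Upk3b reaches 8.03 in NCD replicate 1.

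The make-up of the simple keratins moved with the library. With Krt7, another simple type II keratin gene of the mesothelium, added to the 3 members, the summed FPKM of the 4 genes was 532, 66.2 and 19.6 in NCD replicates 1, 2 and 3 and 22.9, 92.1 and 26.7 in HFD replicates 1, 2 and 3. Krt18 made up 56.6%, 43.3% and 36.7% of this sum on NCD and 16.3%, 17.0% and 19.5% on HFD. Krt19 made up 16.0%, 29.4% and 35.2% on NCD and 49.9%, 43.3% and 37.9% on HFD. Both shares separated the diets, and in both NCD replicate 3 came closest to the HFD-fed mice. Krt7 made up 0.534%, 2.12% and 5.52% on NCD and 12.0%, 9.63% and 9.85% on HFD. The share of Krt8 was 22.6% to 26.9% on NCD and 21.8% to 32.8% on HFD and overlapped. The type I genes exceeded the type II genes by 2.55 to 2.65 times on NCD and by 1.35 to 1.96 times on HFD. On NCD the shares of Krt18 and Krt8 had the order of the seminal vesicle share of the libraries, and those of Krt19 and Krt7 had the reverse order.

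**Figure D5:**
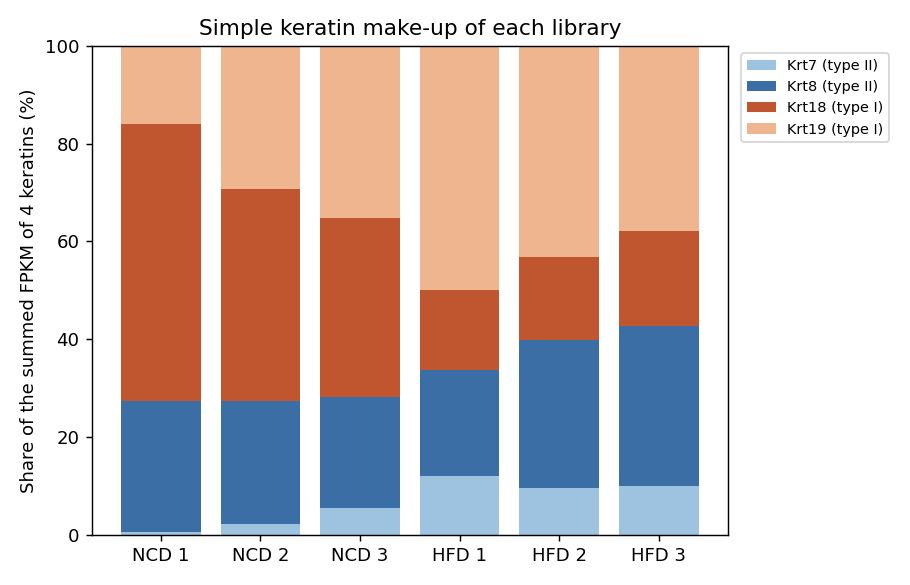
Share (%) of each of 4 simple keratin genes in their summed FPKM, for each library. Krt18 makes up 36.7% to 56.6% in the NCD libraries and 16.3% to 19.5% in the HFD libraries, where Krt19 is the largest share.

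HFD replicate 2 held the highest level of the HFD libraries for each of the 8 genes. All 8 were more than 2-fold above the mean of HFD replicates 1 and 3 there, against 2.51% of all genes tested. The ratio to that mean was 2.097 for Wt1 and 2.16 for Msln, the lowest, and 4.05 for Krt8 and 3.70 for Krt19, the highest. In 4 of the 8 genes (Msln, Upk3b, Wt1 and Lrrn4) this library also held the highest level of all 6. The 8 genes share the library and its scaling, so their number is not a number of independent observations. The glandular epithelial sum was 11.2 in this library beside 12.9 and 14.6 in HFD replicates 1 and 3, and the seminal vesicle genes had 8 counts. The urothelial sum was 0.635 beside 0.208 and 0.303. Of the 9 desmosome and keratin linker genes, 7 were highest of the HFD libraries there, a share not worked out for all genes. In 5 of them the level was more than 2-fold above the mean of HFD replicates 1 and 3, against 2.51% of all genes. Among these 5, Dsp, Dsg2 and Dsc2 were near the floor on HFD, at 0 to 2.18 TMM-scaled CPM. The part of the urothelial and linker genes in the levels of the members was not tested. The sum of progenitor markers was highest there, at 1701 beside 1249 and 1192. Without NCD replicate 1 and HFD replicate 2, a choice made after seeing the data, Msln had a log2 fold change of 1.79 (edgeR adjusted p = 0.0224). It was again the single member called, in a fit that called 11.2% of all genes.

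The other mesothelial genes, a list of 11 of which 10 were in the table and 9 were tested, all had a fitted fold change above 0. Of the 9 tested, 2 rose on HFD and none fell, at an adjusted p under 0.05 by edgeR, and 6 were higher at an unadjusted p under 0.05. Over all genes 5.58% and 16.0% were higher by these thresholds. Their median log2 fold change was 1.36 beside -0.08 over all genes, and 1.17 beside 0.02 without NCD replicate 1, when 3 rose, against 10.7% of all genes. The HFD-fed mice lay above the NCD-fed mice in 5 of the 9, against 20.5% of all genes, and in 6 of the 9 without that library, against 28.5%. Aldh1a2, the retinaldehyde dehydrogenase that makes retinoic acid, was measured at 8.04, 11.9 and 9.99 TMM-scaled CPM on NCD and at 29.1, 50.8 and 53.0 on HFD, a log2 difference of 2.15 (standard error 0.290, edgeR adjusted p = 0.0219). Dmkn, which encodes the secreted protein dermokine, was measured at 1.19, 2.74 and 2.01 on NCD and at 7.14, 18.6 and 10.8 on HFD, a log2 difference of 2.61 (standard error 0.487, edgeR adjusted p = 0.0357). In both the diets did not overlap, and without NCD replicate 1 the log2 differences were 2.04 and 2.37. When a mouse other than NCD replicate 1 was left out, the edgeR adjusted p was 0.0548 to 0.0978 for Aldh1a2 and 0.0599 to 0.122 for Dmkn. Cldn15, a tight junction claudin, was measured at 9.87, 27.6 and 35.6 TMM-scaled CPM on NCD and at 77.3, 96.4 and 62.4 on HFD. Its log2 fold change was 1.69 (standard error 0.472, edgeR adjusted p = 0.0794) and became 1.33 (standard error 0.227, edgeR adjusted p = 0.0161) without NCD replicate 1, whose value was the lowest. Nkain4, a protein that interacts with the sodium pump, differed by 1.15 on the log2 scale (standard error 0.410, edgeR adjusted p = 0.128), and by 1.04 without NCD replicate 1. Calb2, the gene of the mesothelial protein calretinin in humans, had at most 6 counts in any library and was not tested. In NCD replicate 1 8 of these 9 genes were below NCD replicate 2, as Msln, Wt1, Upk3b and Lrrn4 were, with ratios of 0.357 to 0.749. The exception was Krt7, with a ratio of 2.03. In HFD replicate 2, 7 of the 9 were more than 2-fold above the mean of the other HFD libraries. Aldh1a2 and Cldn15 were the exceptions, at 1.24 and 1.38 times that mean.

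Other keratins and the junction proteins that anchor keratin filaments were looked at beside the members. Of the other keratins, 7 of 9 listed were in the table and 4 were tested. At an adjusted p under 0.05 by edgeR, 1 rose and none fell with all mice. Of all genes 5.58% were called higher and 7.47% in either direction. Krt80, a type II keratin, was measured at 1.98, 2.91 and 1.67 TMM-scaled CPM on NCD and at 6.36, 7.88 and 11.5 on HFD, a log2 difference of 1.97 (standard error 0.353, edgeR adjusted p = 0.0325), which was 1.92 without NCD replicate 1. Its edgeR adjusted p was 0.0652 to 0.121 when a mouse other than NCD replicate 1 was left out. Krt5, the type II keratin of basal cells, had no count in the HFD libraries. It was called lower without NCD replicate 1 (edgeR adjusted p = 0.0441), where 20.9% of all genes were called in either direction. On NCD it had 729, 135 and 14 counts, in the order of the seminal vesicle share. Its usual partner Krt14 also followed this order on NCD but was counted on HFD, at 15.6, 2.02 and 0.465 TMM-scaled CPM on NCD and 10.3, 25.0 and 4.45 on HFD, with overlapping values (log2 fold change 1.15, standard error 1.25, edgeR adjusted p = 0.566). For Krt14 the log2 fold change was 3.42 without NCD replicate 1, where the diets did not overlap (standard error 0.985, edgeR adjusted p = 0.0608). Like the members, Krt14 was highest on HFD in replicate 2.

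Of 9 desmosome and keratin linker genes tested by edgeR, none passed with all mice, with 1 higher and 3 lower at an unadjusted p under 0.05, against 16.0% and 13.7% of all genes. Without NCD replicate 1, 1 was higher and 1 lower at an adjusted p under 0.05, against 20.9% of all genes in either direction. Jup, the gene of plakoglobin, had the highest FPKM of this list and a log2 fold change of 0.10 (standard error 0.249, edgeR adjusted p = 0.809). Pkp2, the gene of plakophilin 2, differed by -0.22 on the log2 scale (standard error 0.312, edgeR adjusted p = 0.669). These values were 0.08 for Jup and -0.06 for Pkp2 without NCD replicate 1. Plec, which encodes the linker plectin, was measured at 181, 140 and 97.9 TMM-scaled CPM on NCD and at 236, 294 and 266 on HFD. Its log2 fold change was 0.93 (standard error 0.262, edgeR adjusted p = 0.0805) and 1.17 without NCD replicate 1 (standard error 0.206, edgeR adjusted p = 0.0172). Dsp, the gene of desmoplakin, was the one called lower without NCD replicate 1 and was named after its values were seen. It had 5552, 967 and 174 counts on NCD and 13, 68 and 9 on HFD, in the order of the seminal vesicle share on NCD.

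On the FPKM scale the order of the members depended on the library. On HFD the mean FPKM was 36.6 ± 18.3 for Msln, 34.2 ± 19.1 for Upk1b, 26.7 ± 18.2 for Upk3b, 20.5 ± 16.8 for Krt19, 14.3 ± 10.9 for Lrrn4, 13.8 ± 12.2 for Krt8, 8.19 ± 6.49 for Krt18 and 7.30 ± 3.85 for Wt1 (SD, n = 3 mice each). No neighbours in this order differed by more than their SD. On NCD the means of Krt18 (112 ± 164) and Krt8 (54.7 ± 76.6) were smaller than their SD, and those of Upk1b (37.8 ± 36.4) and Krt19 (37.2 ± 42.1) were close to theirs. The steadier members were Upk3b at 11.9 ± 3.25, Msln at 7.87 ± 0.936, Wt1 at 4.22 ± 0.819 and Lrrn4 at 4.02 ± 1.44 (SD, n = 3 mice each), of which Wt1 and Lrrn4 did not differ beyond their spread. In NCD replicate 3, the NCD library with the least seminal vesicle RNA, the 8 members lay between 3.09 for Lrrn4 and 12.9 FPKM for Upk1b, with Krt18 at 7.19 and Msln at 6.82.

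Pearson correlations of log2(TMM-scaled CPM + 1) between members are given as a description over the 6 libraries, which share the scaling and include NCD replicate 1 and HFD replicate 2. Msln correlated with Lrrn4 at 0.94 and with Upk3b at 0.84, and these values were 0.93 and 0.81 over the 5 libraries without NCD replicate 1. Krt8 correlated with Krt19 at 0.97 and with Krt18 at 0.94, and at 0.94 and 0.78 without that library. Upk1b changed its company, since it correlated at 0.95 with Krt19 and 0.29 with Lrrn4 over 6 libraries, and at 0.89 and 0.98 over 5. Among 11391 genes with a mean of at least 5 TMM-scaled CPM, the genes whose values were most like those of Msln were Lgals7 (0.987), Sfrp4 (0.985), Rcn3 (0.982), Ndrg4 (0.981) and Dpysl3 (0.979) over 6 libraries. Over the 5 libraries they were Col3a1 (0.997), Stbd1 (0.997), Lhfp (0.995), Sulf1 (0.995) and Mras (0.994). For Krt8 they were Golm2 (0.990), Zfpm1 (0.987), Sdk1 (0.986), Cad (0.985) and Ptpn13 (0.982) over 6 libraries, and Map1b (0.996), Susd2 (0.986), Rfx2 (0.981), Prkcz (0.979) and Itih4 (0.979) over 5. With so few libraries high values arise among many genes, and none of these genes recurred between the 6-library and 5-library lists.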

How the data were processed

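RNA of gWAT from 6 mice was measured, and the authors deposited unnormalized read counts for each NCBI gene identifier. The submitters' processing notes name bcl2fastq 2.20.0, Trimmomatic, HISAT2 2.1.0, StringTie 1.3.4d, DESeq2 and the builds mm10 and GRCm38, without their roles. Whether strand was used in counting, and how reads matching several genes were treated, was not found in the sources, so reads of overlapping or copied genes may be shared. All count columns matched a sample (0 unmatched). Symbols were found for 19742 of 19790 identifiers through RefSeq's GRCm38.p6 table, and the other 48 held 0.629% of the counts. HFD replicate 3 carries the number 4 in its column name.

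The filter was filterByExpr of edgeR 4.0.16 in R 4.3.3, with a minimum count of 10 and a minimum total of 15. TMM scaling, glmQLFit and glmQLFTest followed, p-values being adjusted by Benjamini-Hochberg across 15241 genes, and 0.05 was the threshold. Standard errors are the absolute log2 fold change over the root of the F statistic. edgeR estimated a common biological coefficient of variation of 0.424. TMM factors were 0.496 for NCD replicate 1 and 1.02 to 1.27 for the others. Levels of different genes were compared per kilobase of the exon union of GENCODE vM21 basic transcripts. At these depths the spread between mice limits precision more than counting error. The procedure was run on simulated counts that held no admixed RNA, so that run says nothing about the seminal vesicle RNA here. No pair of replicates agreed within sampling noise.

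The 8 genes and all lists were chosen with earlier results of these data known, the test of Lrrn4's neighbour Crls1 and the Msln to Upk3b ratio after values were seen. Named genes are the 8, of each list those past the threshold plus the 3 of highest FPKM, and the 5 most correlated with Msln and with Krt8. Alternatives were no filter, median-of-ratios scaling, total counts, removal of 11 seminal vesicle genes, DESeq2 1.42.0, a replicate block and each mouse left out. Figures were drawn with matplotlib 3.10.9.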

Additional observations from a re-analysis of the deposited data

How the results depend on the processing

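The number of members called by edgeR (1) and of other mesothelial genes called (2) did not change without the filter, with median-of-ratios scaling, with total counts or without the 11 seminal vesicle genes. Removing those 11 genes takes out only their own counts. Any seminal vesicle RNA counted on the members stayed in that fit, so it is no check on that RNA. DESeq2 called 3 members (Msln and Lrrn4 higher, Krt18 lower) and 5 other mesothelial genes, all higher, where it called 25.6% of all genes. With each mouse left out in turn, edgeR called 0 to 1 members and 0 to 3 other mesothelial genes. The count was 0 in both sets whenever a mouse other than NCD replicate 1 was left out, fits in which 2 to 7 of all genes were called and in which 2 to 3 members and 3 to 7 other mesothelial genes had an unadjusted p under 0.05. With all mice, 16.0% of all genes were higher and 13.7% lower at that unadjusted threshold. The share was not worked out for the other fits, so unadjusted counts there have no background to be set against. Correlations of same-numbered deviations were -0.06, -0.05 and 0.01, beside -0.05 to 0.08 for the other pairs, which cannot exclude pairing. The sources do not state that the replicate numbers pair the mice. With them as a replicate block edgeR called 0 members, 0 other mesothelial genes and 12 of all genes, with 3 and 6 at an unadjusted p under 0.05, and without NCD replicate 1 the replicate block called 5 and 4, beside 3100 of 15510 genes. Without both NCD replicate 1 and HFD replicate 2, an alternative added after seeing the data, 1 and 3 were called, beside 11.2% of all genes. The log2 fold change of Upk1b turned to 0.77 with total counts, 0.24 with the replicate block, 1.03 without NCD replicate 1 (-0.68 to 1.03 over the mice left out), 0.11 without HFD replicate 1, 0.07 without HFD replicate 3, 1.20 with the block and without NCD replicate 1, and 0.48 without NCD replicate 1 and HFD replicate 2. That of Krt19 turned to 0.13 with total counts, 0.65 without NCD replicate 1 (-1.76 to 0.65 over the mice left out) and 0.82 with the block and without it. That of Krt8 turned to 0.41 without NCD replicate 1 (-2.96 to 0.41 over the mice left out) and 0.87 with the block and without it. Msln, Upk3b, Wt1 and Lrrn4 were above 0 and Krt18 below 0 in all 14 alternatives. These reuse the same mice. Each keeps NCD replicate 2 or 3, where the seminal vesicle genes held 11.2% and 2.30% of counts. Total counts moved the median log2 fold change of all genes from -0.08 to 0.45, so that the values of Upk1b and Krt19 under that scaling are 0.77 and 0.13 beside a median of 0.45. The log2 difference of Krt18 to Krt8 was -1.64 to -1.40, that of Krt19 to Upk3b -2.09 to -0.35 and that of Msln to Upk3b 0.94 to 1.31 over the mice left out. The cause of these changes was not tested. P-values measure the spread between these mice only, and 3 against 3 mice cannot give a permutation p below 0.1.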
